A study of Mus musculus with 48 samples.

Results

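Liver keeps triglyceride in cytosolic lipid droplets, and the genes described here encode proteins that sit on the droplet, build it or take lipid out of it. The set holds 10 genes: Pnpla3 and Pnpla2, Fitm1 and Fitm2, Plin2, Plin4 and Plin5, and Cidea, Cideb and Cidec. They were chosen by name, as the genes whose probeset on the array (a set of probes summarized to 1 value) carries the gene's symbol and no other. All 10 were measured, with 1 probeset each, among 19938 genes that had a probeset of their own. The samples were livers of 48 male mice, 1 array per mouse and 8 mice per group. The mice were wild type (WT, Wfs1 +/+), heterozygous (HZ, Wfs1 +/-) or homozygous mutant (KO, Wfs1 -/-), and Wfs1 encodes wolframin, which sits in the membrane of the endoplasmic reticulum. The mutant allele invalidates exons 7 and 8 and leaves the other exons in place. From an age of 4 to 6 weeks each genotype received daily intraperitoneal injections for 12 weeks, either of valproic acid (VPA, an antiepileptic drug; 300 mg/kg) or of saline (10 mL/kg). Every liver, taken at an age of 16 to 18 weeks, came from an animal that had been given a glucose load (2 g/kg, for a tolerance test) on the previous day and had last been injected 24 hours before that load. The questions of the design were how the genotype, the drug and their combination altered liver transcripts.

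A lipid droplet is a store of triglyceride and sterol esters in a single phospholipid layer. Perilipins (Plin2, Plin4, Plin5) coat the layer and limit access of lipases, Pnpla2 (adipose triglyceride lipase) takes the first fatty acid off a triglyceride, and Pnpla3 (adiponutrin) is a related droplet protein whose gene is known to follow feeding and the lipogenic factor SREBP-1c. Fitm1 and Fitm2 are endoplasmic reticulum proteins that help new droplets form, and the CIDE proteins (Cidea, Cideb, Cidec) join droplets into larger ones or, for Cideb, load lipid onto very low density lipoproteins. Fitm1 is best known from skeletal muscle, and Cidea, Cidec and Plin4 from adipose tissue, although liver that stores fat also uses Cidec.

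The 250 bases before the start site are shown for the 2 genes that differed between KO and WT mice, Pnpla3 and Fitm1, and for 3 that fell with VPA, Pnpla2, Cidec (the first of its 2 start sites) and Fitm2. The window of Cidea, which also fell, is not shown and was not searched for motifs. They are RefSeq sequences of the build GRCm38.p6, read 5′ to 3′ on the strand of the gene, at chr15:84167566-84167815 (plus strand), chr14:55575424-55575673 (plus), chr7:141454938-141455187 (plus), chr6:113435761-113436010 (minus) and chr2:163472630-163472879 (minus). Capitals mark matches, on either strand, to any of 9 short motifs.
Pnpla3: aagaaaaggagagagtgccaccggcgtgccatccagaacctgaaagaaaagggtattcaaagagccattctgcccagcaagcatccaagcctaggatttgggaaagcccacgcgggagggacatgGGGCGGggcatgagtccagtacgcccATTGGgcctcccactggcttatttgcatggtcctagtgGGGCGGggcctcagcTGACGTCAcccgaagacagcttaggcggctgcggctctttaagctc
Fitm1: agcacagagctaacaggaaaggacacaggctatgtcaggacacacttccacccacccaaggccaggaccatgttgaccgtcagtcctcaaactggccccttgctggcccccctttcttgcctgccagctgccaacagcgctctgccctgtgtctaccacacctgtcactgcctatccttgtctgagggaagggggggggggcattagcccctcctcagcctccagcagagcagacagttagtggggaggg
Pnpla2: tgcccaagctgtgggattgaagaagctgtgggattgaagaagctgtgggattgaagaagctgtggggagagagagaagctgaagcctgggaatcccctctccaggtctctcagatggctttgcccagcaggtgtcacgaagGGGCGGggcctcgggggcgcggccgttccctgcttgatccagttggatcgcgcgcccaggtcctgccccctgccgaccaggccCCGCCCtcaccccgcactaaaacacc
Cidec: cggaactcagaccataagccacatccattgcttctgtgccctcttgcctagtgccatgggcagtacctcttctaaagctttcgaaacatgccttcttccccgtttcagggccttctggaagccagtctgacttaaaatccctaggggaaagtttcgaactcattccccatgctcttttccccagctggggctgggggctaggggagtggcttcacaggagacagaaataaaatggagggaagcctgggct
Fitm2: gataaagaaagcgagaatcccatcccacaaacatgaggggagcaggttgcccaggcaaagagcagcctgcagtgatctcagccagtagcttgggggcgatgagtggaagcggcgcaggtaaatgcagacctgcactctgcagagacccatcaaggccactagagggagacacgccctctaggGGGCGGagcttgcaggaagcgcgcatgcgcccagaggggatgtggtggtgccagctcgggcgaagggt

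The motifs searched were the E-box CACGTG, the D-box TTATGNAA, the nuclear receptor core AGGTCA, the STAT site TTCNNNGAA, a sterol element TCACNCCAC, the TATA box TATAAA, the CCAAT box CCAAT, the GC box GGGCGG and the cyclic AMP response element TGACGTCA. None of the matches printed overlapped another. The Pnpla3 window held a pair of GC boxes, at 125 to 120 and at 61 to 56 bases before the start, a CCAAT box on the minus strand at 99 to 95, and the cyclic AMP response element at 46 to 39. The last is the rarest of these, with a match in 1.55% of 32851 promoter windows of the same length. CCAAT was in 33.8% and GGGCGG in 32.7%. The CCAAT box, GC box and cyclic AMP response element were added to the search after the sequences had been seen. Every match in the printed windows is to these added motifs, so their shares are a description only. Pnpla2 had GC boxes at 109 to 104 and, on the minus strand, at 26 to 21, and Fitm2 had 1 at 68 to 63. The Fitm1 and Cidec windows contained none of the 9 motifs. CACGTG was in 6.02% of all windows, TTATGNAA in 3.07%, AGGTCA in 14%, TTCNNNGAA in 7.02%, TCACNCCAC in 1.05% and TATAAA in 12.4%. Among the members searched, AGGTCA was found in Plin2 (218 to 213 bases before the start, minus strand) and at the first start site of Plin5 (170 to 165), and TATAAA in Cideb (172 to 167). These matches describe letters and not bound sites.

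The deposited values are log2 values made by the robust multi-array average (RMA), so a difference of 1 is a doubling, and levels of different genes cannot be ranked because each probeset binds with its own strength. Array medians ran from 6.90 to 7.03 and arrays correlated by 0.971 to 0.994, with no identical pair. Each comparison below was fitted with limma over 35556 probesets, with a mean per group and 1 spread shared by all 6 groups, and a probeset was called at a Benjamini-Hochberg adjusted p under 0.05. The Wfs1 probeset differed between KO and WT mice by -0.15 (limma adjusted p = 0.320), and since it also covers the exons left in place it does not check the genotype labels. Hepatocyte markers were high in every group, with means from 13.76 to 13.83 over 8 genes. None of the 10 members lies on chromosome 5, which carries Wfs1.

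In KO mice Pnpla3 was higher and Fitm1 lower than in WT mice, and the other 8 members did not pass the test. These are 2 of 10 genes, where 2.94% of all probesets were called (1.37% higher and 1.57% lower). Both genes belong to a list that the study chose on these same mice, so their direction here is not independent evidence. The median KO difference over the 10 members was 0.03, against 0.01 over all probesets.

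Pnpla3 in saline mice ran from 7.27 to 8.87 in WT (median 7.77), from 7.47 to 8.47 in HZ (median 7.63) and from 7.70 to 11.64 in KO (median 9.68). Of the 8 KO mice 5 lay above every WT mouse, 1 lay between and 2 were below the WT mean, so the groups overlapped. The KO mean of 9.60 (n = 8) stood 1.77 above the WT mean of 7.82 (SE 0.43, 3.42-fold, limma adjusted p = 0.0274), where 0.79% of all probesets were called and 0.292% were called higher. Over both treatments the difference was 1.11 (SE 0.30, 2.16-fold, limma adjusted p = 0.0284), and 11 of 16 KO mice were above the WT mean of their treatment. Against HZ mice it was 1.46 (limma adjusted p = 0.00359), with 13 of 16 KO mice above the HZ mean, in a comparison that called 1.44% of all probesets (0.661% higher and 0.779% lower). KO mice were therefore uneven, running from 7.70 to 11.64 with saline. Over all 48 mice of the 6 groups Pnpla3 spanned 4.37 log2 units, the widest range of the 10 genes.

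The Pnpla3 call rested on few mice. Leaving out any 1 of 6 arrays (KO saline replicates 3 and 4, WT VPA replicate 6, KO VPA replicates 2, 4 and 5) lowered the difference over both treatments to between 0.97 and 1.04 with adjusted p from 0.0515 to 0.0631. With the WT and KO arrays alone the size was the same and the adjusted p was 0.0990. In saline the call was lost without WT replicate 2 or 6 or without KO replicate 2, 3, 4 or 5, where the difference ran from 1.48 to 1.75.

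Fitm1 gave the clearest separation of groups. Saline WT mice ran from 9.68 to 10.58 (median 9.84), HZ mice from 9.30 to 10.68 (median 10.01) and KO mice from 7.50 to 9.47 (median 8.35). All 8 saline KO mice were below every saline WT mouse. The saline difference was -1.48 (SE 0.27, 2.79-fold lower, limma adjusted p = 0.00186), where 0.498% of all probesets were called lower. Over both treatments it was -1.08 (SE 0.19, 2.12-fold lower, limma adjusted p = 0.000236), with 14 of 16 KO mice under the WT mean of their treatment, and against HZ mice -1.19 (limma adjusted p = 0.000169), with 15 of 16 under the HZ mean. No left-out array ended these calls of Fitm1. Its largest difference over both treatments, without KO saline replicate 7, was -1.16.

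**Figure D1:**
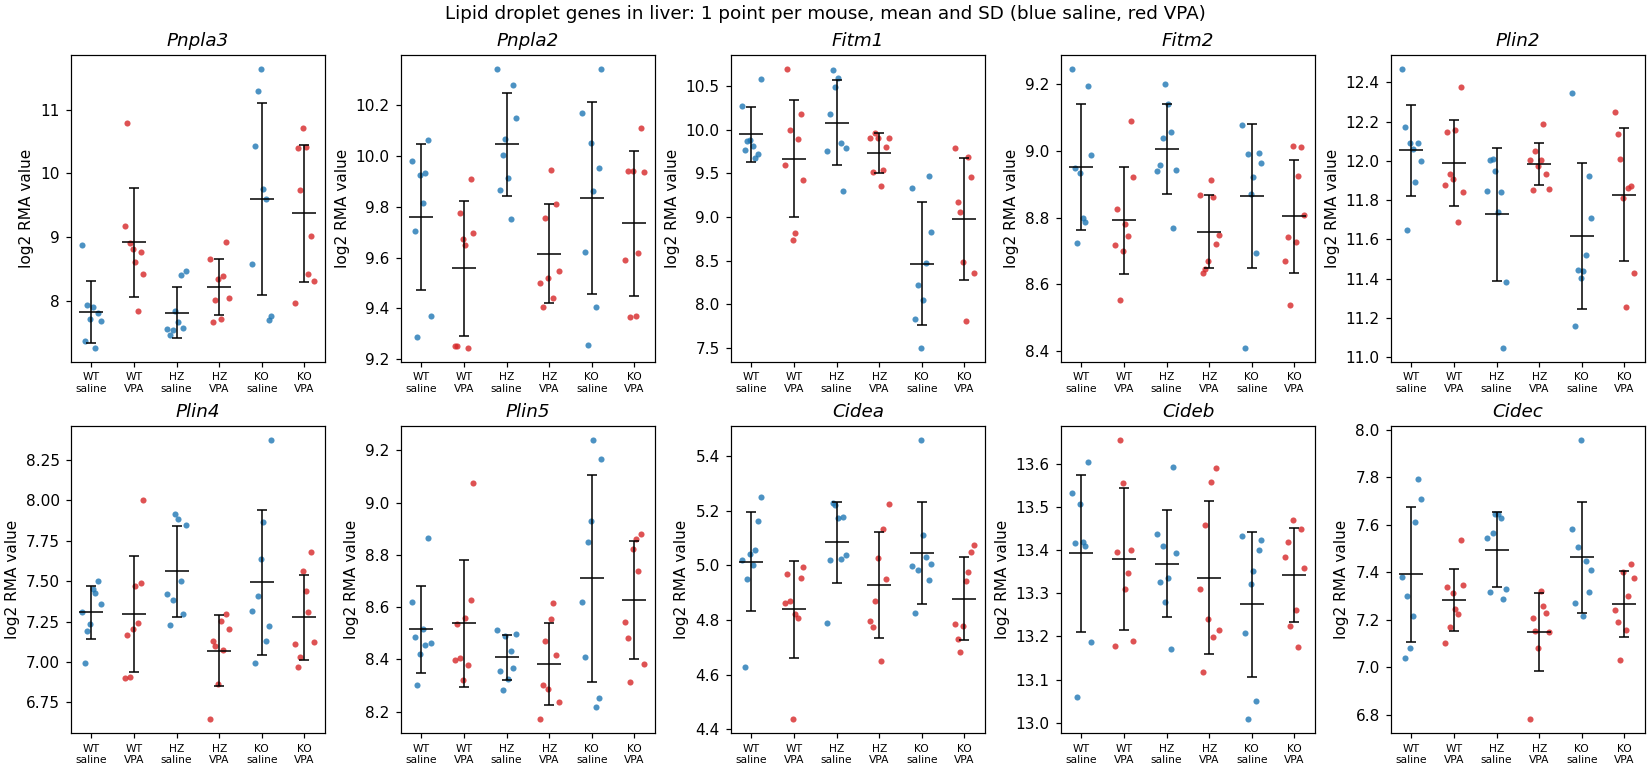
Log2 RMA value (vertical axis, own scale in each panel) of the 10 genes in each group of 8 mice (horizontal axis), with 1 point per mouse (blue saline, red VPA), a bar at the mean and whiskers of 1 SD. Fitm1 of the saline KO mice lies between 7.50 and 9.47, below all WT saline mice, and Pnpla3 of the same mice spreads from 7.70 to 11.64.

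Under VPA the same 2 differences were smaller and neither passed. Pnpla3 ran from 7.85 to 10.79 in WT (median 8.79) and from 7.98 to 10.71 in KO (median 9.38), a difference of 0.45 with a 95% interval from -0.41 to 1.31. Without WT VPA replicate 2, which was at 10.79, the difference was 0.72 (limma adjusted p = 0.869). Fitm1 ran from 8.73 to 10.69 in WT (median 9.74) and from 7.80 to 9.79 in KO (median 9.11), a difference of -0.69 with an interval from -1.22 to -0.15 (limma adjusted p = 0.395). Both groups overlapped for both genes. limma called 0 members there (1 at an unadjusted p under 0.05, and 0 with an ordinary linear model), where 0.405% of all probesets were called.

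Whether VPA acted differently in the genotypes was tested itself. The VPA difference of Pnpla3 was 1.09 in WT, with all 8 VPA mice above the saline mean (adjusted p = 0.669), and -0.22 in KO. The gap between them was -1.32 (95% interval -2.54 to -0.10, unadjusted p = 0.0343 and adjusted p = 1.00 with limma). For Fitm1 VPA mice differed by -0.28 in WT and by 0.51 in KO, a gap of 0.79 (95% interval 0.04 to 1.55, unadjusted p = 0.0401 and adjusted p = 1.00 with limma). In the F test of the interaction over the 3 genotypes limma called 0 of the 10 members (1 at an unadjusted p under 0.05, Fitm1, with adjusted p = 0.629, and 0 with an ordinary linear model) and 0.0816% of all probesets. A dependence of the drug effect on genotype was thus not shown for any member, although the intervals for these 2 genes reach past a doubling.

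Within the KO saline group the mice with the most Pnpla3 had the least Fitm1. The extremes were replicate 4, with Pnpla3 at 11.64 and Fitm1 at 7.50, and replicate 7, with 7.70 and 9.47. Pearson's r was -0.87 (exact permutation p = 0.00739, n = 8, adjusted p = 0.0443 over 6 groups) and Spearman's rho was -0.90 (exact permutation p = 0.00456, n = 8, adjusted p = 0.0274), and r was -0.73 without the 2 mice farthest from the median of Pnpla3. In KO VPA mice r was -0.56 and rho -0.57 (exact permutation p = 0.141 and 0.151, n = 8). In the other 4 groups r lay between -0.23 and 0.52, and the smallest exact permutation p was 0.191 (n = 8). Whether the relation differs between genotypes was not tested.

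**Figure D2:**
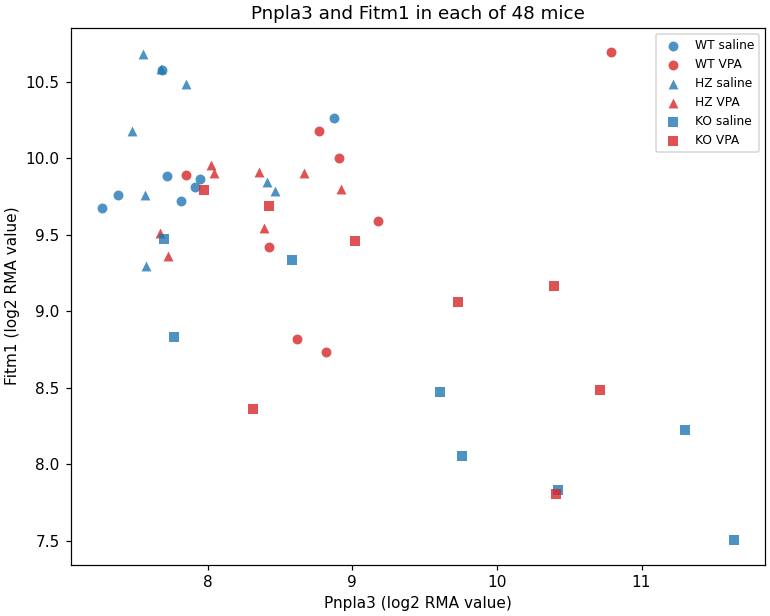
Fitm1 (vertical axis, log2 RMA value) against Pnpla3 (horizontal axis, log2 RMA value) in each of 48 mice, with a symbol for genotype and a colour for treatment. KO saline mice (blue squares) run from high Fitm1 and low Pnpla3 (9.47 and 7.70) to the reverse (7.50 and 11.64), with r = -0.87.

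Markers of other cells were read beside these genes, since in whole liver fewer cells of a type and less RNA per cell cannot be told apart. Of 10 skeletal muscle markers 0 were called by limma in KO against WT, and their mean level ran from 6.21 to 6.63 in WT saline and from 6.25 to 6.90 in KO saline mice, while Fitm1 fell. Of 9 adipocyte markers 1 was called, where 2.94% of all probesets were. It was Car3, which is also strongly expressed by liver and which fell by 0.18. The list's mean level was 7.75 in WT saline and 7.77 in KO saline mice. KO saline replicate 4, which had the highest Pnpla3, the lowest Fitm1 and the highest Cidec of all 48 mice, also had the highest mean of adipocyte markers (8.16) and the next to highest of muscle markers (6.90). Without this mouse Fitm1 in saline was still lower by 1.34 and called, and Pnpla3 was higher by 1.48 (adjusted p = 0.118).

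The other members differed less between genotypes. Plin2, the main perilipin of hepatocytes, ran from 11.65 to 12.47 in WT saline mice (median 12.08) and from 11.16 to 12.35 in KO saline mice (median 11.48), and 5 of 8 KO mice lay below every WT mouse. Its difference over both treatments was -0.30 (95% interval -0.50 to -0.10, limma adjusted p = 0.0901). Plin5, which ties droplets to mitochondria, was 0.14 above WT and 0.27 above HZ in KO mice (limma adjusted p = 0.468 and 0.0821). Its KO saline values reached from 8.22 to 9.24, with 3 mice above and 2 below every WT saline mouse. Pnpla2, Plin4, Cidea, Cideb, Cidec and Fitm2 differed between KO and WT by -0.08 to 0.13, and the widest of their 95% intervals, that of Plin4 and Pnpla2, ran to 0.29 and 0.32. Cideb was the steadiest, with all 48 mice within 0.65 log2 units.

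Between HZ and WT mice no member passed the test. Over both treatments limma called 0 of 10 (0 at an unadjusted p under 0.05, and 0 with an ordinary linear model), in a comparison that called 0.00281% of all probesets, a single one. Fitm1 differed by 0.10 (95% interval -0.28 to 0.48) and Pnpla3 by -0.35 (95% interval -0.96 to 0.26). The intervals leave room for a change of Pnpla3 of nearly 1 log2 unit downwards, but not for a rise as large as that of KO mice. Some members leaned one way in most HZ mice, Plin2 and Plin4 within 1 treatment only. Plin2 was below the WT saline mean in 8 of 8 HZ saline mice (-0.33, limma unadjusted p = 0.0226 and adjusted p = 0.384). In HZ VPA mice 4 were above and 4 below the WT VPA mean. Plin4 was below the WT VPA mean in 8 of 8 HZ VPA mice (-0.23, limma adjusted p = 1). In saline it leaned the opposite way, above the WT mean in 6 of 8 HZ mice (0.25, limma adjusted p = 0.548). Plin5 was below the WT mean of its treatment in 14 of 16 HZ mice (-0.13, limma adjusted p = 0.965). Fitted within a treatment, a comparison added after the data were seen, limma called 0 members in saline (2 at an unadjusted p under 0.05, Plin2 and Pnpla2, and 0 with an ordinary linear model), where 0.304% of all probesets were called, and 0 members in VPA mice (0 at an unadjusted p under 0.05 and 0 with an ordinary linear model), where 0.00281% were called.

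**Figure D3:**
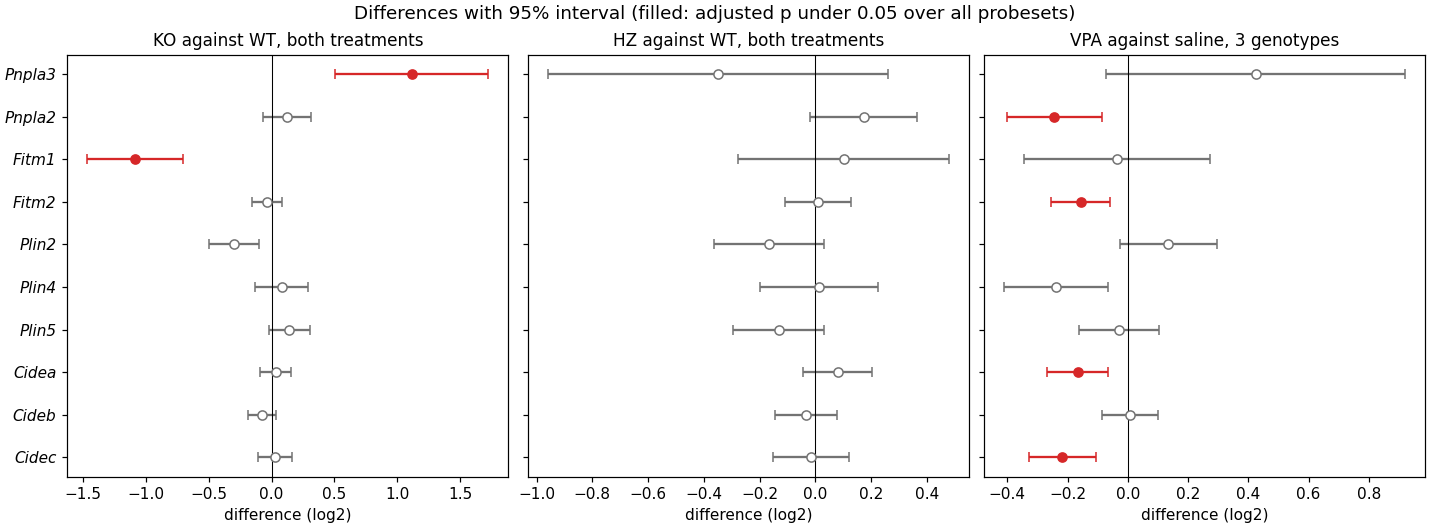
Fitted log2 differences of the 10 genes with 95% intervals, for KO against WT, HZ against WT and VPA against saline (horizontal axes, each with its own scale). Filled points passed an adjusted p under 0.05 and are Pnpla3 (1.11) and Fitm1 (-1.08) for KO, none for HZ, and Pnpla2, Cidea, Cidec and Fitm2 for VPA.

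With VPA 4 members fell by small amounts and none rose. Over the 3 genotypes the lipase Pnpla2 fell by 0.24 (SE 0.08, limma adjusted p = 0.0406), Cidec by 0.22 (SE 0.06, limma adjusted p = 0.00967), Cidea by 0.17 (SE 0.05, limma adjusted p = 0.0306) and Fitm2 by 0.16 (SE 0.05, limma adjusted p = 0.0340), which are falls of 1.11-fold to 1.18-fold. The comparison called 8.61% of all probesets, 4.6% lower, and the median of the members was -0.10 against -0.02 for all probesets. Plin4 differed by -0.24 (95% interval -0.41 to -0.07, limma adjusted p = 0.0691). The values for Pnpla3 were 0.42 (limma adjusted p = 0.270) and for Plin2 0.13 (limma adjusted p = 0.281), and Plin5, Cideb and Fitm1 differed by under 0.04.

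Cidec, which fuses droplets, was the most even of these. It ran from 7.04 to 7.79 in WT, 7.29 to 7.65 in HZ and 7.22 to 7.96 in KO saline mice, and from 7.10 to 7.53, 6.78 to 7.32 and 7.03 to 7.43 in the VPA mice of the same genotypes. In 23 of 24 VPA mice it was below the saline mean of the genotype, yet the ranges overlapped in each genotype. Cidea was below that mean in 20 of 24 VPA mice, Fitm2 in 20 and Pnpla2 in 18. Cidea is read from a dim probeset whose group means lay between 4.84 and 5.08.

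Within single genotypes limma called members in the HZ mice only, where it called 10.5% of all probesets (5.76% lower). The set there held Plin4, which did not pass over the 3 genotypes, and not Cidea (-0.16, limma adjusted p = 0.225). In HZ mice Plin4 fell by 0.49 (limma adjusted p = 0.0280), Pnpla2 by 0.43 (limma adjusted p = 0.0337), Cidec by 0.35 (limma adjusted p = 0.0165) and Fitm2 by 0.25 (limma adjusted p = 0.0478). Without HZ VPA replicate 1 none of the 4 was called, the Fitm2 call was lost in 22 of 48 fits that left out 1 array, and median centring left Plin4 and Cidec. Plin4 ran from 7.23 to 7.92 in HZ saline and from 6.65 to 7.30 in HZ VPA mice, with 6 of 8 below every saline mouse, and Pnpla2 from 9.75 to 10.34 and from 9.41 to 9.94, with 5 of 8 below. In WT limma called 0 members (2 at an unadjusted p under 0.05, 0 with an ordinary linear model) and 0.0703% of all probesets, and in KO 0 members (1 at an unadjusted p under 0.05, 0 with an ordinary linear model) and 0.0112%. The fall of Plin4 in HZ exceeded that in WT by 0.48 (95% interval 0.06 to 0.90), but the adjusted p of that difference was 0.600, so a difference between the genotypes was not shown.

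These falls depended on the scaling and on the arrays used. Over all probesets 1425 were called higher and 1637 lower with VPA (46.5% higher), and after each array was centred on its median 1871 and 860 (68.5% higher). After the centring Cidec alone of the members passed (-0.19, adjusted p = 0.0182). Without the HZ arrays the 4 differences were -0.11 to -0.17 and none passed.

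Genes of the circadian clock moved with VPA too, and their values stand beside these falls. The time of day at which each mouse was killed is not given in the sources used here, and its part in these values was not tested. A clock index per mouse was the mean of standardized Arntl and Clock minus the mean of 7 genes of the opposite phase (Dbp, Tef, Hlf, Per2, Per3, Nr1d1 and Nr1d2). For WT, HZ and KO mice in that order the mean index was -0.24, -2.42 and -1.19 with saline, and 2.21, 1.84 and -0.20 with VPA. With VPA limma called all 7 of those genes lower, with a median difference of -0.78, and Dbp fell by 1.92. It called Arntl and Clock higher, where 8.61% of all probesets were called. With the index as a covariate the VPA differences of Pnpla2, Plin4, Cidea and Cidec became 0.17, 0.27, 0.04 and 0.04 and that of Fitm2 was -0.07, none of them called. Since the index and the drug moved together, their parts cannot be told apart in these fits. Clock genes differed with genotype as well. In KO against WT, where 2.94% of all probesets were called, limma called 5 of the 7 genes higher (median difference 0.58). It called 1 of Arntl and Clock lower, so the parts of the index and the KO genotype cannot be told apart either. Over both treatments the KO calls of Pnpla3 and Fitm1 were lost under the covariate, with differences of 1.51 (1.11 without it) and -1.05 (-1.08 without it) and adjusted p of 0.119 and 0.0682. Within saline both were called, at 2.00 (adjusted p = 0.0322) and -1.46 (adjusted p = 0.00957).

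**Figure D4:**
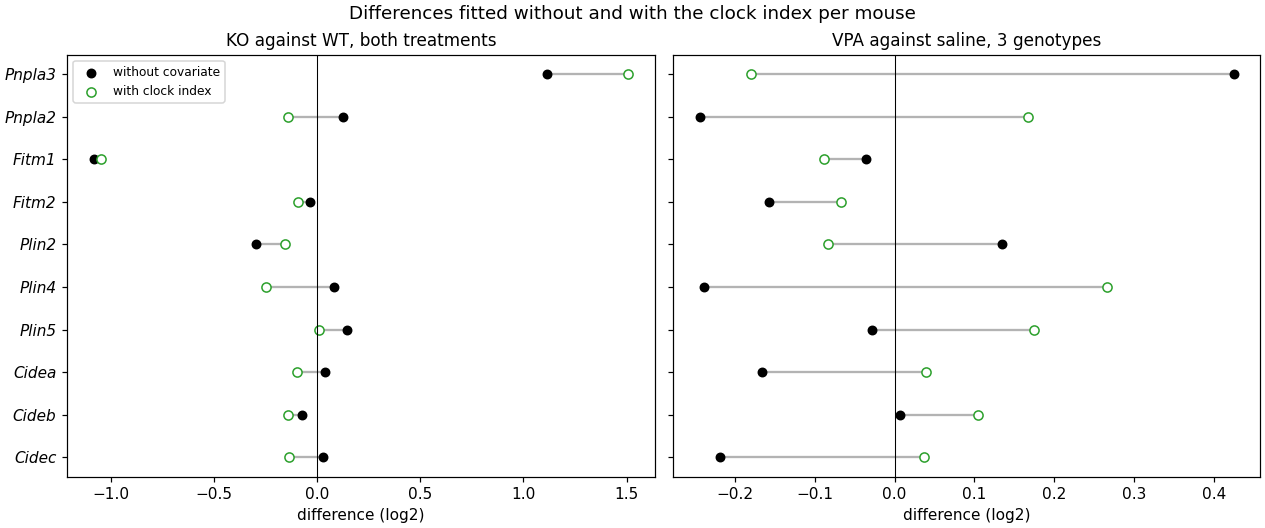
Log2 differences (horizontal axes) of the 10 genes for KO against WT and for VPA against saline, fitted without (black) and with (green ring) the clock index of each mouse as a covariate. Fitm1 in KO mice is at -1.08 and -1.05, whereas the VPA differences of Pnpla2, Plin4, Cidea and Cidec move from below 0 to above 0.

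Markers of other liver cells also moved with VPA. That comparison called 8.61% of all probesets, 4.6% lower, with 1425 of 35556 called higher. Of 8 Kupffer cell markers 3 rose, Adgre1 by 0.41, Cd5l by 0.41 and Csf1r by 0.32, and of 7 stellate cell markers 2 rose, Lrat by 0.39 and Dcn by 0.14. In HZ mice alone, where 10.5% of all probesets were called (5.76% lower), 5 and 3 rose. The mean Kupffer level of HZ mice ran from 8.21 to 8.98 in saline and from 8.89 to 9.38 in VPA mice. Of 8 hepatocyte markers Tat fell by 0.18 and Cyp2e1 by 0.08. Of 9 adipocyte markers 0 were called, with a median difference of -0.09 against -0.02 for all probesets. Their mean level in WT, HZ and KO mice was 7.75, 7.78 and 7.77 with saline and 7.68, 7.68 and 7.72 with VPA. KO saline replicate 4 and WT saline replicate 7 had the highest means of this list (8.16 and 8.08) and the highest Cidec (7.96 and 7.79). The part of cell makeup in the falls of the members was not tested.

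Members also varied together among mice of a group. Across the 48 mice, after each group's mean was removed, 11 of 55 pairs of members and clock index passed an adjusted p under 0.05 by Pearson's r. The strongest was between the lipase Pnpla2 and Cideb (r = 0.79, rho = 0.80, and r = 0.75 without the 2 farthest mice). Next was Plin4 with Plin5 (r = 0.77, rho = 0.73, and r = 0.69 without the 2 farthest mice), which are neighbours on chromosome 17. For both pairs the permutation p was 1e-05, the smallest that 100000 permutations can give, and the adjusted p was 0.000275. Plin2 and Fitm1 followed (r = 0.64, rho = 0.60, permutation p = 4e-05, adjusted p = 0.000733, and r = 0.58 without the 2 farthest mice).

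Fitm2 varied with several droplet coat genes, with r of 0.49 for Plin2, 0.49 for Plin5, 0.48 for Plin4 and 0.44 for Cidec (adjusted permutation p from 0.0126 to 0.0329, rho from 0.40 to 0.52). Cidea and Cidec gave r of 0.47 and rho of 0.42 (adjusted permutation p = 0.0126), and Plin4 and Cidec r of 0.41 and rho of 0.51 (adjusted permutation p = 0.0319). The clock index was inversely related to Plin4 (r = -0.48, rho = -0.49, adjusted permutation p = 0.0126) and to Pnpla2 (r = -0.43, rho = -0.40, adjusted permutation p = 0.0428 for r and 0.0521 for rho). All these pairs come from the same arrays, and the part of array quality was not tested. Over all mice Pnpla3 and Fitm1 gave r of -0.33 (rho = -0.27, adjusted permutation p = 0.183).

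**Figure D5:**
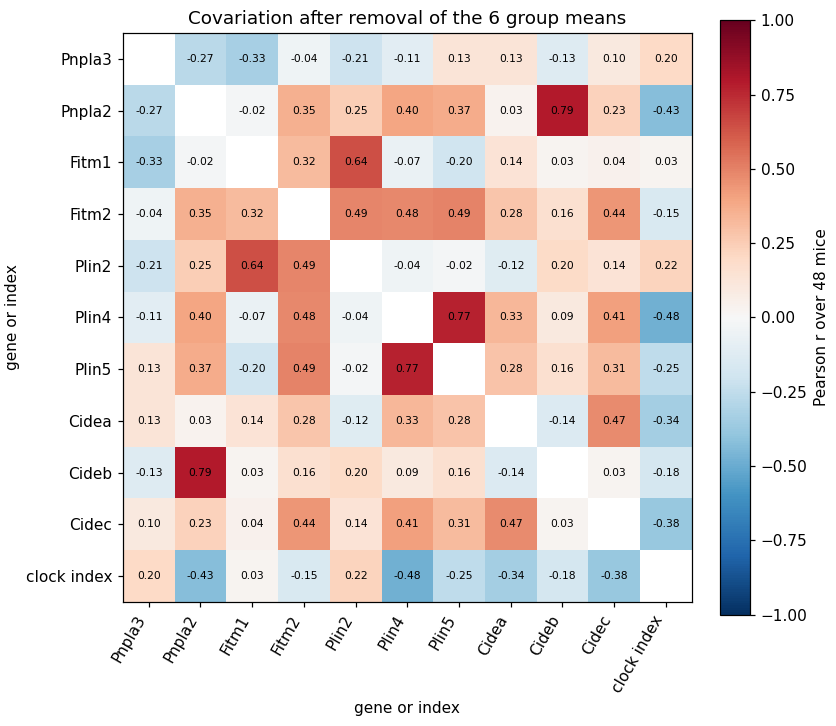
Pearson r over 48 mice (colour and number) between the 10 genes and the clock index, after the mean of each of the 6 groups was removed from every mouse. Pnpla2 with Cideb (0.79), Plin4 with Plin5 (0.77) and Plin2 with Fitm1 (0.64) stand out.

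For the members called in a main comparison the genes most like them over the 48 mice were looked up among 17961 others, as a description without a test. Pnpla3 was closest to Fasn (r = 0.89), Acaca (0.88) and Gpam (0.88), which encode fatty acid synthase, acetyl-CoA carboxylase and a glycerol-3-phosphate acyltransferase. After removal of group means these were still 0.85, 0.83 and 0.87. Fitm1 was closest to Alas2 (0.86), the erythroid enzyme of haem synthesis, Car3 (0.83) and Ldhd (0.83), and Alas2 was lower in KO mice by 1.24. Without the group means these were 0.69, 0.67 and 0.61. Pnpla2 went with Atxn2 (0.88), Rxra (0.88) and Nfix (0.87), Cidec with Megf6 (0.75), Mex3d (0.74) and Synm (0.70), Fitm2 with Rufy4 (0.76), Col27a1 (0.74) and Cxcr1 (0.72), and Cidea with Tedc2 (0.63), Nova2 (0.58) and Ces1a (0.58).

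Other genes of lipid storage were counted in lists chosen with earlier results of these data known. The list of transcription factors holds Ppargc1a and Ppard, which the study reported from these same mice, so their calls are not independent evidence. The comparison of KO with WT mice called 2.94% of all probesets, 1.37% higher and 1.57% lower. Of 13 other lipid droplet proteins 2 rose in KO mice, Tm6sf2 by 0.51 and Hsd17b13 by 0.31, and 1 fell, Faf2 by 0.19. Tm6sf2 helps load lipid onto lipoproteins, Hsd17b13 is a droplet enzyme of liver, and Faf2 takes part in the removal of droplet and endoplasmic reticulum proteins. Of 20 other lipases and hydrolases the carboxylesterases Ces3a and Ces3b fell in KO mice, by 0.39 and 0.34, and none rose. Of 13 triglyceride synthesis genes 3 rose, Gpat3 by 0.42, Lpin2 by 0.39 and Dgat2, the last step of the pathway, by 0.22. Of 10 transcription factors known to act on such genes 2 rose, Ppargc1a by 0.64 and Srebf1, which encodes SREBP-1c, by 0.49. The list medians were -0.02, 0.02, 0.08 and 0.10, beside 0.01 for all probesets. In HZ mice limma called 0 genes of these 4 lists, where it called 1 probeset of all.

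Averaged over the genotypes, 5 of the 13 triglyceride synthesis genes fell with VPA and none rose, where 8.61% of all probesets were called and 4.6% were called lower. The balance of higher and lower calls turned with median centring as given above. Among the 5 were Lpin1, which fell by 0.53, Lpin2 by 0.37, Dgat2 by 0.21 and Gpat4 by 0.21. Of 20 lipases 2 rose and none fell. Lpl, which acts on circulating lipoproteins, rose by 0.68 and the lysosomal lipase Lipa by 0.15. Of 13 droplet proteins 2 rose and none fell. Hilpda, an inhibitor of Pnpla2, rose by 0.13 and Faf2 by 0.11. Of 10 factors Ppard rose by 0.65 on average over the genotypes, and Ppara and Cebpa fell by 0.36 and 0.32. The study reported from these same mice that the rise of Ppard depended on genotype. It was strongest in WT mice and was not detected in KO mice. The Ppard change within each genotype is not given here. The list medians were -0.0033 for synthesis, -0.02 for lipases, 0.03 for droplet proteins and -0.07 for the factors, beside -0.02 for all probesets. Dgat2 and Lpin2 thus rose in KO mice and fell with VPA on average over the genotypes. Of the 13 synthesis genes limma called 6 lower in HZ mice alone, where it called 10.5% of all probesets (5.76% lower). The mean level of the list in WT, HZ and KO mice was 9.43, 9.58 and 9.56 with saline. With VPA it was 9.42, 9.36 and 9.57, so it fell in HZ mice and hardly moved in WT and KO mice. Whether the change of this list differs between genotypes was not tested.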

How the data were processed

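Liver RNA of 48 mice was hybridized to Affymetrix Mouse Gene 1.0 ST arrays from 300 ng of total RNA with RNA integrity numbers of 7 to 9. Per the submitters' processing notes, the deposited log2 values came from Affymetrix Expression Console 1.1.2800.28061, where the authors used RMA (background correction, equal distributions across arrays, 1 summary per probeset). They were used as deposited, with all arrays. Of 35556 probesets 21789 have 1 gene symbol in the platform annotation, 1621 several and 12146 none.

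The model, with a mean per group, was run in limma 3.58.1 under R 4.3.3 (42 residual degrees of freedom, eBayes, two-sided tests), and the fit was checked on simulated data. Figures were drawn with matplotlib in Python. Precision is limited here by the number of arrays. Named were all 10 members, for each list up to 4 called genes with the largest change in a comparison, and for each member called in a main comparison the 3 genes with the highest r. Ldaf1, Acsl3, Lipc, Ces2c, Cfd and Npas2 had no probeset of their own. Members and lists were chosen with earlier results of these data known. The CCAAT box, GC box and cyclic AMP response element were added to the motifs after the sequences had been seen.

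Alternatives were array weights, a trended robust eBayes, no moderation, median centring, a group mean of at least 5, probesets with 1 symbol, the replicate number as a block, the clock index as a covariate, only the groups compared, the thresholds of the study and leaving out each array. Replicate numbers were not taken to pair mice, since the study's methods have no such block. After removal of group means, arrays of different groups correlated on average by 0.05 under the same number and by -0.01 under other numbers. The correlation was over 0.1 in 53 of 120 pairs of the same number. Of the 48 arrays 11 had their nearest array of another group under the same number. What the numbers stand for was not tested.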

Additional observations from a re-analysis of the deposited data

Results flagged for a closer look

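Among 60 combinations of gene and group, 6 held a mouse whose gap to its nearest neighbour was large for the range of its group, where chance gives about 1 in 20. In WT saline mice Pnpla3 of replicate 1 was 8.8742, and the nearest other mouse was at 7.94. In WT VPA mice Pnpla3 of replicate 2 was 10.786, and the group mean was 8.92 with it and 8.65 without. In the same group Plin5 of replicate 8 was 9.0764 with the next mouse at 8.63, and Cidea of replicate 4 was 4.4363 with the next at 4.81. In KO saline mice Cidea of replicate 4 was 5.4581 with the next at 5.11. In HZ VPA mice Cidec of replicate 1 was 6.7816, and without it the group mean rose from 7.15 to 7.20.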

How the results depend on the processing

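With array weights 1 member was called for KO against WT in saline, and the interaction called 133 probesets of all (29 otherwise). After median centring 1 member was called for VPA and 2 for VPA in HZ mice. With a group mean of at least 5, HZ against WT called 2 probesets, and with probesets of 1 symbol 4, and the interaction then called 54. With the replicate number as a block HZ against WT called 2 probesets and the interaction 54, Plin4 passed for VPA at -0.24 (limma adjusted p = 0.0204), and no other call of a member changed. With the clock index as a covariate 0 members were called for KO against WT (106 probesets), 0 for VPA (0 probesets) and 0 for VPA in HZ mice, and the interaction called 0 probesets, all with limma. Under it the VPA differences reversed for Pnpla2 (0.17), Plin4 (0.27), Cidea (0.0388) and Cidec (0.0366), and in HZ mice for Pnpla2 (0.25), Plin4 (0.35) and Cidec (0.0739), and the cause was not tested. With only WT and KO arrays 1 member and 689 probesets were called for KO against WT, and 0 members and 78 probesets for VPA. With only WT and HZ arrays HZ against WT called 6 probesets, and within saline mice, a setting chosen after seeing the data, 108. At the thresholds of the study KO against WT called 64 probesets, VPA 1 member and 1624 probesets, and the interaction 358.

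Leaving out each array gave 1 to 3 members for KO against WT, 1 to 3 in saline, 1 to 5 for VPA and 0 to 4 for VPA in HZ mice, where the 0 came without HZ VPA replicate 1. It gave 1 to 5 probesets for HZ against WT, 2334 to 4663 for VPA and 15 to 52 for the interaction. The VPA call of Pnpla2 was lost in 25 of 48 such fits (-0.27 to -0.22), that of Fitm2 in 8 and that of Cidea in 1, without KO VPA replicate 3, while Cidec passed in all 48. The Fitm2 call was lost without WT saline replicate 1 or 7, HZ saline replicate 4 or 5, KO saline replicate 1 or 8, WT VPA replicate 3 or KO VPA replicate 3, with differences from -0.15 to -0.14. In HZ mice the VPA call was lost in 8 of 48 fits for Pnpla2, 5 for Plin4, 22 for Fitm2 and 1 for Cidec, without HZ VPA replicate 1. A trended robust eBayes, no moderation, the group mean of at least 5 and probesets of 1 symbol changed no call of a member. Cidea met that group mean only in saline mice (5.01 to 5.08), against 4.84 to 4.93 with VPA. For Cidea this setting therefore does not check the fall.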
